A study of Mus musculus with 18 samples.

Results

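The 10 mature miRNA strands from the proximal part of the imprinted Dlk1-Dio3 region of mouse chromosome 12 followed here are 10 of the 1841 mature miRNAs in the deposited count tables. They were chosen by name: miR-127-3p, miR-127-5p, miR-433-3p, miR-433-5p, miR-431-5p, miR-434-3p, miR-434-5p, miR-136-5p, miR-136-3p and miR-337-3p. Small RNAs of mouse brain had been sequenced in 18 libraries, 3 biological replicates in each of 6 groups. Hippocampus came from knockouts of Cyrano, a long noncoding RNA (CyrKO), and from wild-type mice (WT). Cerebellum came from the double mutant (CyrKOCdr1as671), from CyrKO, from mice with a deletion of 18 nt where miR-671 binds Cdr1as, a circular RNA (Cdr1as671), and from WT. All mice were C57BL/6J males aged 1 month. RNA was extracted from frozen tissue without sorting of cells, per the labels, and neither Cyrano nor Cdr1as is among the RNAs counted, so the genotypes rest on the labels.

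The Dlk1-Dio3 region is imprinted, which means that the copy a gene came on, from the mother or from the father, decides whether it is expressed. The protein-coding genes Dlk1, Rtl1 and Dio3 are expressed from the paternal chromosome, and the long noncoding RNAs Meg3, Rian and Mirg, with the miRNAs and snoRNAs among them, from the maternal one. Rtl1 is a gene derived from a retrotransposon and is needed in the placenta. Several miRNAs of the region are transcribed from the opposite strand of Rtl1 and are known to direct cleavage of its mRNA, since they pair with it along their whole length. The miRNAs of this region are abundant in neurons. Each hairpin gives a 5p and a 3p strand, and usually the more abundant strand is the one that stays in Argonaute and guides it to targets.

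The strands are shown because each has its own seed, bases 2 to 8 (in capitals), which sets most of the mRNAs that a miRNA can recognise. Sequences are from RefSeq, build GRCm38.p6, in the order of the hairpins along the plus strand of chromosome 12.
mmu-miR-337-3p: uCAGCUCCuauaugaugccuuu
mmu-miR-431-5p: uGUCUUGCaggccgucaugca
mmu-miR-433-5p: uACGGUGAgccugucauuauuc
mmu-miR-433-3p: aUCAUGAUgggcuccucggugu
mmu-miR-127-5p: cUGAAGCUcagagggcucugau
mmu-miR-127-3p: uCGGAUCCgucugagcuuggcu
mmu-miR-434-5p: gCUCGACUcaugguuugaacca
mmu-miR-434-3p: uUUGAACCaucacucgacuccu
mmu-miR-136-5p: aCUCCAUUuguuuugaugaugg
mmu-miR-136-3p: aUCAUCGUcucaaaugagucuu
The 10 strands carry 10 different seeds, and no other mouse miRNA in the RefSeq table has a seed identical to any of them.

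The 6 hairpins lie within 9600 bp of the plus strand (GRCm38). Mir337 starts at chr12:109585789-109585885, and Mir136 ends the group at chr12:109595327-109595388. Between them lie Mir431 (chr12:109590447-109590537), Mir433 (chr12:109591715-109591838), Mir127 (chr12:109592846-109592915) and Mir434 (chr12:109594506-109594599). In the GENCODE annotation 5 of the 6 hairpins lie inside the coding exon of Rtl1, which is on the minus strand at chr12:109589193-109600330. Mir337 lies 3308 bp outside that gene model, though inside the longer span that RefSeq gives for Rtl1.

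A search of 141767 GENCODE transcripts for stretches complementary to a whole strand found Rtl1 for 9 of the 10. Shown as examples are the Rtl1 sites of the most abundant strand and of miR-433-3p, with the bases opposite the seed in capitals.
Rtl1 site of miR-127-3p: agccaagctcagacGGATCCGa
Rtl1 site of miR-433-3p: acaccgaggagcccATCATGAt
The site of miR-127-3p covers bases 2642 to 2663 of the Rtl1 transcript, which is 6358 nt long, and that of miR-433-3p covers bases 3749 to 3770. For miR-337-3p the only such match was the antisense hairpin Mir3544, and both miR-136 strands also matched the antisense hairpin Mir3071. Rtl1 mRNA itself was not measured in these libraries.

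Levels are given as counts per 1000000 miRNA reads of the library (CPM). This scale has no length term, which matters little here because the strands are 21 or 22 nt long. Libraries held 8591172 to 15305829 miRNA reads, and every strand was read at least 264 times in every library, so all 10 passed the filter on low counts in every comparison. The neuronal miRNAs miR-124-3p, miR-9-5p and miR-128-3p were all found and together reached 242646 to 367613 CPM. Red blood cell miRNAs (miR-144-3p, miR-144-5p and miR-451a) summed to 2583 to 3574 CPM in hippocampus, and to 603 to 32949 CPM in cerebellum. Libraries 1 and 2 of Cdr1as671 stood apart on that measure, at 783 and 603 CPM, against 16205 CPM in library 3 and 6326 to 32949 CPM in WT cerebellum. The values of library 3 alone stand beside the results on Cdr1as671 that these libraries carry.

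Of all miRNA reads, the 10 strands together took 3.41% ± 0.212 in hippocampus of CyrKO and 3.29% ± 0.174 in hippocampus of WT (SD, n = 3 each, as throughout). In cerebellum they made up 2.02% ± 0.0803 in CyrKOCdr1as671, 1.81% ± 0.145 in CyrKO, 2.15% ± 0.0461 in Cdr1as671 and 1.92% ± 0.134 in WT. All 6 hippocampus libraries lay above all 12 cerebellum libraries, and each tissue comparison gave an exact two-sided permutation p of 0.1, the smallest that 3 libraries against 3 allow (0.2 adjusted over the 8 comparisons of this share). In cerebellum the share was also higher in Cdr1as671 than in WT, and lower in CyrKOCdr1as671 than in Cdr1as671, without overlap and with the same p. In library 3 of Cdr1as671 it was 2.15%, against 1.87%, 2.07% and 1.82% in the WT libraries. In whole tissue, fewer cells of a type and less RNA per cell cannot be told apart.

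A few strands supplied most of these reads. miR-127-3p ranked 23rd of the 1841 miRNAs by its mean over all libraries, miR-136-5p 30th and miR-434-3p 40th. In WT cerebellum miR-127-3p alone gave 36.1% ± 0.633 of the reads of the 10 strands, miR-136-5p 34.1% ± 1.44 and miR-434-3p 17.2% ± 1.28. At the other end, miR-433-5p gave 0.203% ± 0.0147. By mean level miR-127-3p was first and miR-433-5p last of the 10 in each of the 6 groups, although miR-136-5p came first in 1 CyrKO and 1 Cdr1as671 cerebellum library, and miR-431-5p last in 1 WT hippocampus library.

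Hippocampus and cerebellum were compared first in WT, then in CyrKO. The strands were more abundant in hippocampus: 9 of the 10 rose in WT hippocampus against WT cerebellum, and 8 of the 10 in CyrKO hippocampus against CyrKO cerebellum, with none that fell in either. These are calls of edgeR's quasi-likelihood test with TMM scaling and Benjamini-Hochberg adjustment over all tested miRNAs. The tissues differ throughout the miRNA profile: of 746 tested, 70.0% were called in WT, with 37.5% higher in hippocampus, and 72.1% in CyrKO, with 38.9% higher. The medians of the log2 differences of the 10 strands were 0.46 in WT and 0.38 in CyrKO, beside 0.03 and 0.10 over all tested miRNAs.

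The scaling sets much of the size of these differences. Neuronal miRNAs took 262493 CPM on average in WT hippocampus and 346844 CPM in WT cerebellum. Most of that gap was miR-124-3p, at 127356 and 209629 CPM, while miR-9-5p overlapped and miR-128-3p went the other way, at 29643 to 32400 CPM in WT hippocampus and 19109 to 23643 CPM in WT cerebellum. With library totals in place of TMM the median log2 difference of all tested miRNAs was 0.58 in WT and 0.68 in CyrKO. That scaling called 402 miRNAs higher and 126 lower in WT, and 419 and 126 in CyrKO, where TMM called 280 and 242 in WT and 290 and 248 in CyrKO. CPM ratios between tissues are therefore larger than the fitted folds below, which are relative to the bulk of miRNAs. On CPM itself 9 of the 10 strands had all 6 hippocampus libraries above all 12 cerebellum libraries, as did 44.8% of the 746 tested miRNAs, while 12.6% had all of them below.

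**Figure D1:**
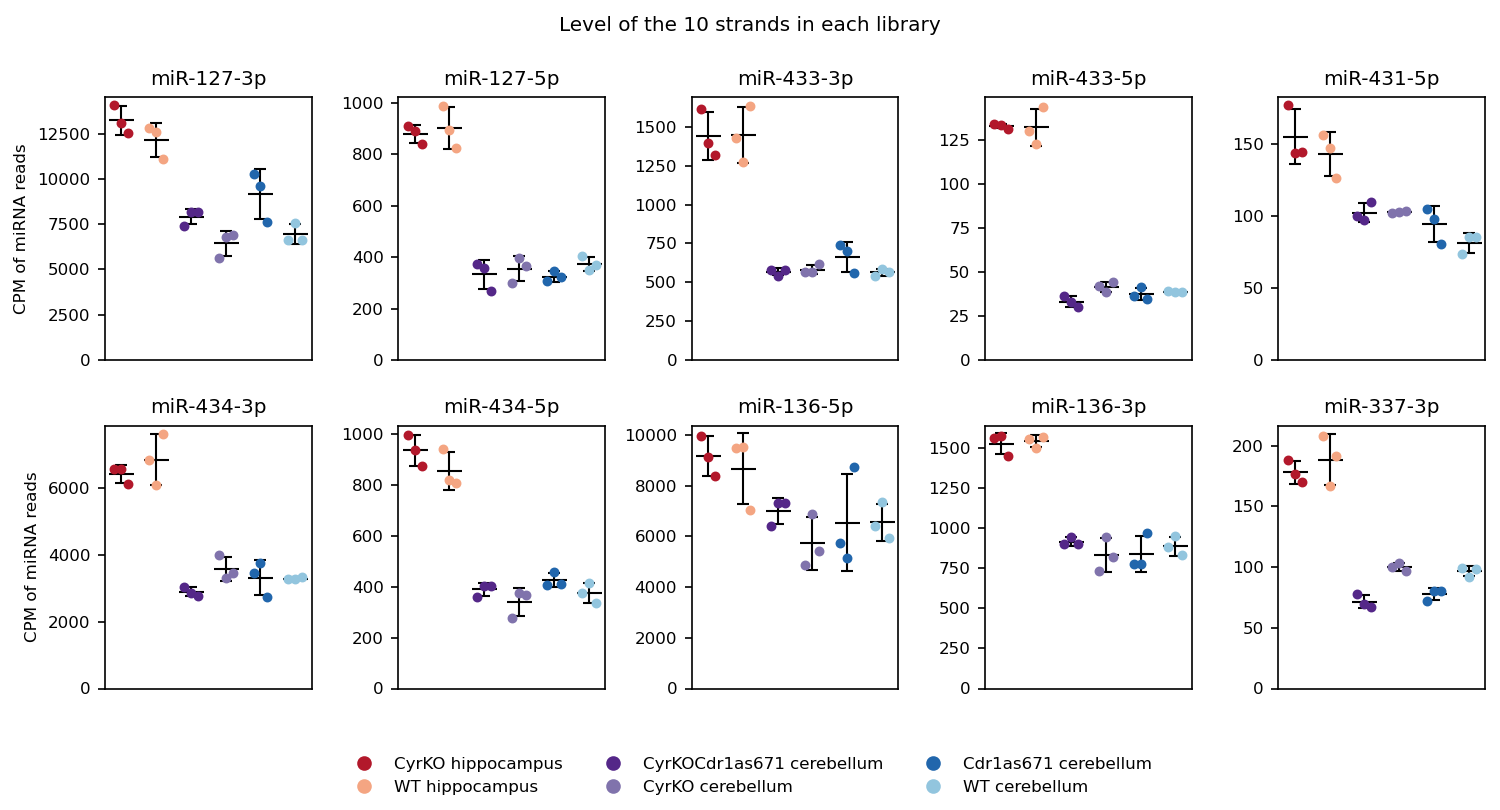
Level of each strand (CPM, linear axes from 0, a scale of its own in each panel) in the 18 libraries, with points for libraries and bars for mean ± SD of 3. For 9 strands the 6 hippocampus libraries lie above the 12 cerebellum libraries, and for miR-136-5p they overlap.

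In WT the miR-433 strands differed most. miR-433-5p was read at 130.5, 123 and 144 CPM in the WT hippocampus libraries, against 39.4, 38.6 and 38.6 CPM in WT cerebellum. Its level in hippocampus was above 3 times that in cerebellum in each pairing of those libraries, and the fitted log2 difference was 1.22 (SE 0.09, edgeR adjusted p = 6.59e-09). In CyrKO it was read at 133.9, 133.6 and 131.5 CPM in hippocampus and at 41.8, 38.6 and 44.3 CPM in cerebellum, a log2 difference of 1.103 (SE 0.09, edgeR adjusted p = 2.16e-08).

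miR-433-3p, the abundant strand of that hairpin, was read at 1428, 1277 and 1636 CPM in WT hippocampus and at 538, 588 and 565 CPM in WT cerebellum. The log2 difference was 0.81 in WT (SE 0.10, edgeR adjusted p = 2.96e-06) and 0.73 in CyrKO (SE 0.10, edgeR adjusted p = 8.90e-06). For both strands of this hairpin all hippocampus libraries lay far above those of cerebellum.

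miR-127-3p, known for guiding cleavage of Rtl1 mRNA, was read at 12793, 12614 and 11094 CPM in WT hippocampus and at 6621, 7592 and 6617 CPM in WT cerebellum. Its fitted log2 difference was 0.26 in WT (SE 0.10, edgeR adjusted p = 0.0282) and 0.46 in CyrKO (SE 0.10, edgeR adjusted p = 0.000529). The WT call was lost with RLE size factors, by DESeq2, and without WT cerebellum library 3 or WT hippocampus library 1. With red blood cell miRNAs as a covariate it was lost as well, at 0.056 (edgeR adjusted p = 0.812). The CyrKO call was lost only with that covariate, at 0.21 (edgeR adjusted p = 0.461). The rare strand of the same hairpin differed more: miR-127-5p was read at 987, 896 and 827 CPM in WT hippocampus and at 403, 349 and 368 CPM in WT cerebellum, with log2 differences of 0.72 in WT and 0.73 in CyrKO (SE 0.11 each).

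For the miR-434 hairpin both strands rose in both genotypes. miR-434-3p had log2 differences of 0.51 in WT (SE 0.10) and 0.27 in CyrKO (SE 0.10, edgeR adjusted p = 0.0247), at 6851 ± 770 CPM in WT hippocampus and 3295 ± 40.2 CPM in WT cerebellum. miR-434-5p had log2 differences of 0.63 in WT (SE 0.12) and 0.88 in CyrKO (SE 0.12), at 855 ± 74.5 CPM in WT hippocampus and 375 ± 39.1 CPM in WT cerebellum. The CyrKO call of miR-434-3p was lost with a filter at a mean of 10 CPM, by DESeq2, and without CyrKO hippocampus library 1 or 3. With red blood cell miRNAs as a covariate neither strand was called in either genotype. The edgeR adjusted p was then 0.0798 in WT and 0.526 in CyrKO for miR-434-3p, and 0.275 and 0.155 for miR-434-5p.

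miR-136-5p was the exception. It was read at 9474, 9508 and 7037 CPM in WT hippocampus and at 6398, 7340 and 5925 CPM in WT cerebellum, so the libraries overlapped. The log2 difference was -0.15 in WT (SE 0.15, edgeR adjusted p = 0.367) and 0.10 in CyrKO (SE 0.15, edgeR adjusted p = 0.567). With library totals in place of TMM the WT value was 0.40 (edgeR adjusted p = 0.0202), so its direction depends on the scaling. Its partner miR-136-3p rose, with log2 differences of 0.25 in WT (SE 0.11, edgeR adjusted p = 0.0486) and 0.29 in CyrKO (SE 0.11, edgeR adjusted p = 0.0210). The CyrKO call was lost with a filter at a mean of 10 CPM and without WT cerebellum library 3 or CyrKO cerebellum library 1. With red blood cell miRNAs as a covariate the CyrKO call was lost as well, at 0.091 (edgeR adjusted p = 0.790). The WT call was lost in 6 of 8 other settings, all but library totals and the replicate block, and in 2 of 12 fits that left out a library; the difference ran from 0.083 to 0.80 over those settings.

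miR-337-3p rose by 0.42 on the log2 scale in WT hippocampus (SE 0.10) and by 0.25 in CyrKO hippocampus (SE 0.10, edgeR adjusted p = 0.0315). It averaged 188 ± 20.7 CPM in WT hippocampus and 96.6 ± 4.07 CPM in WT cerebellum. The CyrKO call was lost in 6 of 8 other settings, where the difference ran from 0.13 to 0.83, and in 5 of 12 fits that left out a library. miR-431-5p rose in WT, by 0.26 (SE 0.11, edgeR adjusted p = 0.0351), at 143 ± 15.3 CPM in WT hippocampus and 81.5 ± 6.90 CPM in WT cerebellum. The WT call was lost in 5 of 8 other settings and in 3 of 12 fits that left out a library. In CyrKO its log2 difference was 0.02 (SE 0.10, edgeR adjusted p = 0.882), and with library totals, where the median of all miRNAs was 0.68, it was 0.60 (edgeR adjusted p = 0.000124).

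Calls with small differences moved with the settings. With library totals all 10 strands were called higher in both genotypes. With RLE size factors 6 of the 10 strands were called in WT and 7 in CyrKO. With the mean log2 level of the red blood cell miRNAs as a covariate 3 were called in WT and 2 in CyrKO. Those miRNAs summed to 2583 to 3058 CPM in WT hippocampus and 6326 to 32949 CPM in WT cerebellum. In CyrKO the sums were 2864 to 3574 CPM in hippocampus and 16566 to 27991 CPM in cerebellum. Markers of vessels (4 of 4 found) were higher in hippocampus, at 11451 to 11895 CPM in WT hippocampus and 8090.3 to 8840 CPM in WT cerebellum, and at 11245 to 14697 and 7817 to 7947 CPM in CyrKO. Immune markers (2 of 4 found) did not overlap in WT, at 2571 to 3044 CPM in hippocampus and 2111 to 2464 CPM in cerebellum, nor did those of oligodendrocytes (3 of 3 found) in CyrKO, at 12479 to 13419 and 6589 to 10229.9 CPM. Muscle markers (2 of 3 found) summed to 155 to 207 CPM in WT hippocampus and 956 to 1067 CPM in WT cerebellum, and to 153.6 to 188 and 874 to 1099 CPM in CyrKO. That gap was miR-206-3p alone, at 4.51 to 6.75 CPM in WT hippocampus and 838 to 968 CPM in WT cerebellum, since miR-1a-3p was higher in hippocampus, at 150.1 to 201 and 98.9 to 118 CPM. The part of these lists in the tissue differences was not tested. Red blood cell levels did not overlap between the tissues, so the covariate cannot be told apart from tissue. With it the SE of miR-433-3p in WT went from 0.10 to 0.21. miR-127-5p and miR-433-5p were called in both genotypes under each setting tried other than leaving out libraries, and miR-433-3p was not called in CyrKO with that covariate.

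The rest of the imprinted region was compared with the 10 strands by the same fits. Other proximal strands (from hairpins such as Mir770, Mir493, Mir540 and Mir370) were higher in hippocampus as well: all 19 tested rose in WT, with a median log2 difference of 1.34, and 18 of 19 in CyrKO, with a median of 1.30. Among them miR-493-5p had a log2 difference of 2.78 in WT (SE 0.17), miR-370-5p of 1.99 (SE 0.14) and miR-770-5p of 1.43 (SE 0.11). Of the distal strands, from Mir379 onward, 55 of the 64 tested rose and 4 fell in WT (median 1.05), and 56 rose and 3 fell in CyrKO (median 0.92). Examples of the distal strands in WT are miR-412-5p at 2.06, miR-409-3p at 2.10 and miR-496a-3p at 1.89.

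**Figure D2:**
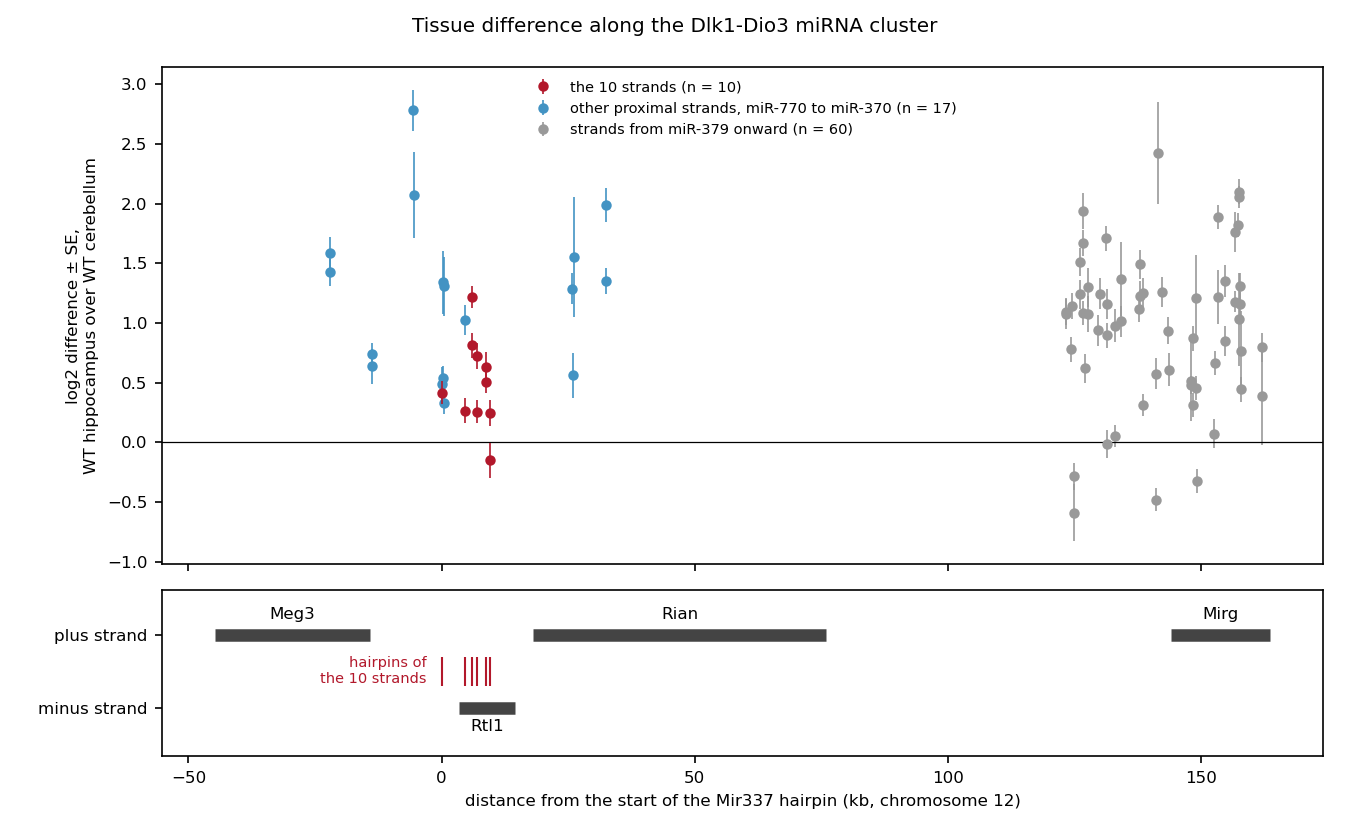
Upper panel, log2 difference ± SE between WT hippocampus and WT cerebellum for the strands of the region that were tested and have a position in the RefSeq table (10, 17 and 60 strands), against the distance in kb from the start of Mir337. Lower panel, hairpins of the 10 strands and the genes around them; the 10 strands lie between -0.15 and 1.22, and the highest of the other proximal strands is miR-493-5p at 2.78.

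A ratio within each library, which needs no scaling between libraries, sets the 10 strands against the distal ones. Their summed reads were 0.992 ± 0.00726 times those of the distal strands in CyrKO hippocampus and 0.964 ± 0.0577 times in WT hippocampus. In cerebellum the ratio was 1.51 ± 0.0902 in CyrKOCdr1as671, 1.27 ± 0.0600 in CyrKO, 1.57 ± 0.0599 in Cdr1as671 and 1.40 ± 0.0470 in WT. The ratio was lower in hippocampus than in cerebellum in both genotypes, without overlap of libraries, and the log2 difference was -0.54 in WT and -0.36 in CyrKO. Summed reads follow the most abundant strands; with the mean of log2(CPM + 1) over the strands of each list in place of the sums, the differences were -0.24 in WT and -0.17 in CyrKO. Each exact two-sided permutation test gave p = 0.1, the smallest that 3 libraries against 3 allow (adjusted p = 0.16 over the 8 comparisons of this ratio).

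Both strands of a hairpin come from a single precursor, so their ratio also needs no scaling. The abundant strand exceeded the rare one by less in hippocampus for 3 of the 4 hairpins with both strands among the 10. This held in both genotypes, without overlap of libraries. How many other hairpins separate likewise was not computed, here or for the comparisons of genotypes below. miR-127-3p had 13.5 ± 0.559 times the reads of miR-127-5p in WT hippocampus and 18.7 ± 2.75 times in WT cerebellum, and 15.02 ± 0.424 and 18.2 ± 0.962 times in CyrKO hippocampus and cerebellum. miR-433-3p had 10.9 ± 0.493 times the reads of miR-433-5p in WT hippocampus and 14.5 ± 0.806 times in WT cerebellum. miR-136-5p had 5.64 ± 1.01 times the reads of miR-136-3p in WT hippocampus and 7.38 ± 0.318 times in WT cerebellum.

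For miR-434 the ratio was 8.06 ± 1.21 in WT hippocampus and 8.85 ± 1.02 in WT cerebellum, with overlapping libraries (exact permutation p = 0.4). In CyrKO it was 6.89 ± 0.239 in hippocampus and 10.9 ± 3.07 in cerebellum, where library 1 stood at 14.4, and there the libraries did not overlap. The exact permutation p was 0.1 for miR-434 in CyrKO and for the other 3 hairpins in both genotypes, the smallest possible, and 0.213 after adjustment over 32 ratio tests.

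**Figure D3:**
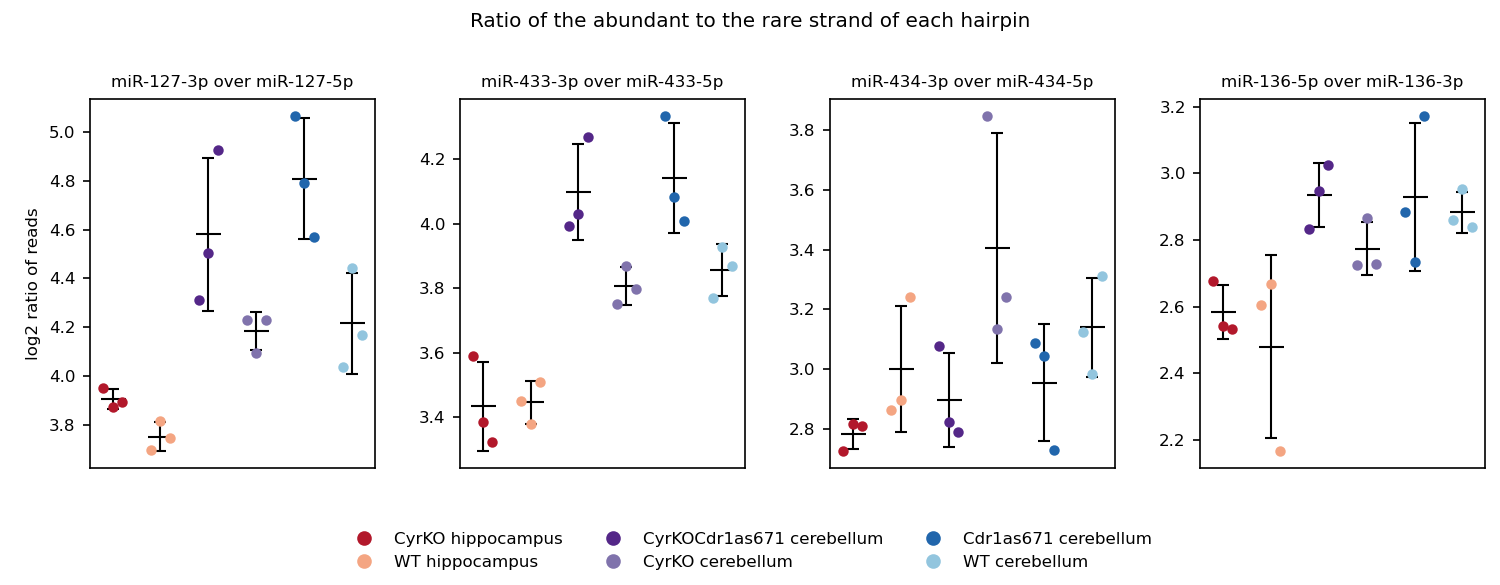
Log2 ratio of the abundant to the rare strand in each library for 4 hairpins, with points for libraries, bars for mean ± SD of 3 and a scale of its own in each panel. For miR-127, miR-433 and miR-136 the hippocampus libraries lie below the cerebellum libraries of the same genotype; for miR-434 they overlap in WT.

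Loss of Cyrano was then examined in each tissue against WT. None of the 10 strands was called in CyrKO hippocampus (edgeR, 0 at unadjusted p under 0.05 as well, and 0 by DESeq2), where 0.570% of the 702 tested miRNAs were. Their log2 differences ran from -0.11 to 0.11. The 3 with the lowest p were miR-434-5p at 0.11 (SE 0.08), miR-127-3p at 0.10 (SE 0.07) and miR-434-3p at -0.11 (SE 0.09), each with an edgeR adjusted p of 0.846. The miR-127 strand ratio was 15.02 ± 0.424 in CyrKO hippocampus and 13.5 ± 0.559 in WT hippocampus, and that of miR-434 was 6.89 ± 0.239 and 8.06 ± 1.21, both without overlap (exact permutation p = 0.1, the smallest possible, 0.213 adjusted).

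In CyrKO cerebellum too none was called (edgeR, 1 at unadjusted p under 0.05, and 0 by DESeq2), beside 0.898% of the miRNAs tested. That strand was miR-431-5p, read at 102, 103 and 104 CPM in CyrKO and at 73.6, 85.8 and 85.3 CPM in WT. All CyrKO libraries lay above all WT libraries, and the log2 difference was 0.34 (SE 0.10, edgeR adjusted p = 0.474). The next were miR-434-3p at 0.12 (SE 0.09) and miR-136-5p at -0.19 (SE 0.14), both at an edgeR adjusted p of 0.999. The authors' deposited table gives miR-431-5p a log2 fold change of 0.36 and an adjusted p of 0.663. Vessel miRNAs (4 of 4 found) did not overlap between these groups, at 7817 to 7947 CPM in CyrKO and 8090 to 8840 CPM in WT. Of these only miR-143-3p separated on its own, at 1281 to 1470 and 1532 to 1673 CPM. Their part was not tested.

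Elsewhere in the region some distal strands rose in CyrKO. Of the 59 distal strands tested in cerebellum 3 rose and none fell: miR-409-3p by 1.51 on the log2 scale (SE 0.12, edgeR adjusted p = 1.24e-05), miR-411-3p by 1.01 (SE 0.10) and miR-379-3p by 0.88 (SE 0.10). In hippocampus 1 of 64 rose, miR-409-3p by 0.87 (SE 0.08, edgeR adjusted p = 0.000299). Of the other proximal strands 0 of 15 were called in cerebellum and 0 of 18 in hippocampus, and 0 of each had an unadjusted p under 0.05 by edgeR. The effect of CyrKO did not pass the test of a difference between the tissues for any of the 10 strands (edgeR, 0 at unadjusted p under 0.05 and 0 by DESeq2, beside 0.402% of 746 called), with values between -0.25 and 0.25. The lowest p-values belonged to miR-434-3p at -0.24 (SE 0.14), miR-431-5p at -0.25 (SE 0.15) and miR-127-3p at 0.21 (SE 0.14).

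The ratio of the 10 strands to the distal strands was 1.23, 1.34 and 1.25 in the CyrKO cerebellum libraries and 1.36, 1.45 and 1.39 in those of WT, without overlap. The log2 difference was -0.14, or -0.046 with means of log2 levels in place of sums, and the exact permutation p was 0.1, the smallest possible, or 0.16 after adjustment. In hippocampus the libraries overlapped.

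The Cdr1as671 allele was examined in cerebellum against the same WT libraries. None of the 10 strands was called (edgeR, 3 at unadjusted p under 0.05, and 0 by DESeq2), beside 2.26% of the miRNAs tested. miR-337-3p was read at 72.3, 80.6 and 80.2 CPM in Cdr1as671 and at 99.2, 91.9 and 98.7 CPM in WT, a log2 difference of -0.35 (SE 0.11, edgeR adjusted p = 0.121). All Cdr1as671 libraries lay below all WT libraries. The sums of neuronal miRNAs did not overlap either, at 303466 to 325708 CPM in Cdr1as671 and 335100 to 367613 CPM in WT. Each neuronal miRNA on its own did overlap. Muscle miRNAs (2 of 3 found) did not overlap, at 1084 to 1729 and 956 to 1067 CPM. The part of these lists in the results was not tested.

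miR-127-3p was read at 10272, 9585 and 7628 CPM in Cdr1as671 and at 6621, 7592 and 6617 CPM in WT, a log2 difference of 0.36 (SE 0.12, edgeR adjusted p = 0.129). Libraries 1 and 2, low in red blood cell miRNAs, held its highest cerebellar levels, and library 3 was close to the highest WT library. With library 3 alone against WT the log2 difference was 0.16 (SE 0.09, edgeR adjusted p = 0.622), the lone library being assumed to vary like the others. For miR-337-3p it was then -0.24 (SE 0.15, edgeR adjusted p = 0.622).

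Libraries 1 and 2 of Cdr1as671 differed from library 3 in other strands as well. miR-136-5p was read at 5731 and 5149 CPM there and at 8727 CPM in library 3, the highest level in cerebellum. miR-433-3p was read at 738 and 699.8 CPM there and at 557 CPM in library 3. Without library 3 the test called 4 of the 10 strands against WT, miR-127-3p and miR-433-3p higher and miR-136-5p and miR-337-3p lower, and over all miRNAs 40 higher and 72 lower, where with it 5 were higher and 10 lower. With the mean log2 level of the red blood cell miRNAs as a covariate in the fit of all 3 libraries, 0 of the 10 were called. Over all miRNAs 2 were then higher and 1 lower. The log2 difference was then -0.26 for miR-337-3p (SE 0.15, edgeR adjusted p = 0.656), 0.17 for miR-127-3p (SE 0.12, adjusted p = 0.695) and -0.20 for miR-127-5p (SE 0.14, adjusted p = 0.695).

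miR-127-5p went the other way from miR-127-3p, at 325 ± 19.7 CPM in Cdr1as671 and 373 ± 27.6 CPM in WT, with a log2 difference of -0.24 (SE 0.11, edgeR adjusted p = 0.226). With library 3 alone it was -0.19 (SE 0.14, edgeR adjusted p = 0.665). The strand ratio of the hairpin was 33.4, 27.7 and 23.7 in the Cdr1as671 libraries and 16.4, 21.8 and 18.0 in those of WT, without overlap. That of miR-433 was 17.7 ± 2.14 in Cdr1as671 and 14.5 ± 0.806 in WT. Both gave an exact permutation p of 0.1, the smallest possible (0.213 adjusted over 32 ratio tests), and library 3, with its higher red blood cell level, had the lowest ratio of the group for both hairpins, at 23.7 for miR-127 and 16.1 for miR-433, above each WT library.

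In the double mutant 1 of the 10 strands rose against WT and none fell (edgeR, 3 at unadjusted p under 0.05), beside 2.57% of 662 tested miRNAs. miR-431-5p was read at 100.2, 97.2 and 109.9 CPM in CyrKOCdr1as671 and at 73.6, 85.8 and 85.3 CPM in WT, a log2 difference of 0.41 (SE 0.09, edgeR adjusted p = 0.0493). All libraries of the double mutant lay above those of WT. Red blood cell miRNAs overlapped, at 5405 to 16004 CPM in CyrKOCdr1as671 and 6326 to 32949 CPM in WT. With their mean log2 level as a covariate the log2 difference of miR-431-5p was 0.43 (edgeR adjusted p = 0.0898). The sums of neuronal miRNAs did not overlap, at 303067 to 329741 CPM in CyrKOCdr1as671 and 335100 to 367613 CPM in WT. Only miR-124-3p among them separated on its own, at 164864 to 185562 and 189238 to 228550 CPM, while miR-9-5p and miR-128-3p overlapped. Choroid plexus miRNAs (4 of 4 found, mostly miR-204-5p) did not overlap either, at 6971 to 8155 and 8219 to 9587 CPM. Nor did those of immune cells (2 of 4 found), at 1841 to 2016 and 2111 to 2464 CPM. The part of these 3 lists in the result was not tested. The call sat at the threshold: the adjusted p was above it in 5 of 6 fits that left out a library (all but the fit without WT library 2) and in 5 of 10 other settings, and the direction was the same in all of these. A fit blocked on replicate number kept it, while calls over all miRNAs went to 16 higher and 19 lower, against 13 higher and 4 lower without the block. That these numbers pair the samples rests only on correlations of deviations in the same counts (0.463 to 0.659). Between CyrKOCdr1as671 and CyrKO those correlations ran from -0.152 to 0.318.

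miR-337-3p was read at 77.4, 69.6 and 67.5 CPM in CyrKOCdr1as671 and at 99.2, 91.9 and 98.7 CPM in WT, again without overlap, with a log2 difference of -0.35 (SE 0.09, edgeR adjusted p = 0.0788). miR-127-3p had a log2 difference of 0.28 (SE 0.08, edgeR adjusted p = 0.0876). The authors' deposited table gives adjusted p-values of 0.00895 for miR-431-5p, 0.0315 for miR-337-3p and 0.0501 for miR-127-3p, with log2 fold changes of 0.41, -0.35 and 0.28. The 3 comparisons with WT cerebellum share the same 3 WT libraries, so they are not independent of each other, and the comparisons between mutants share the double mutant's libraries.

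**Figure D4:**
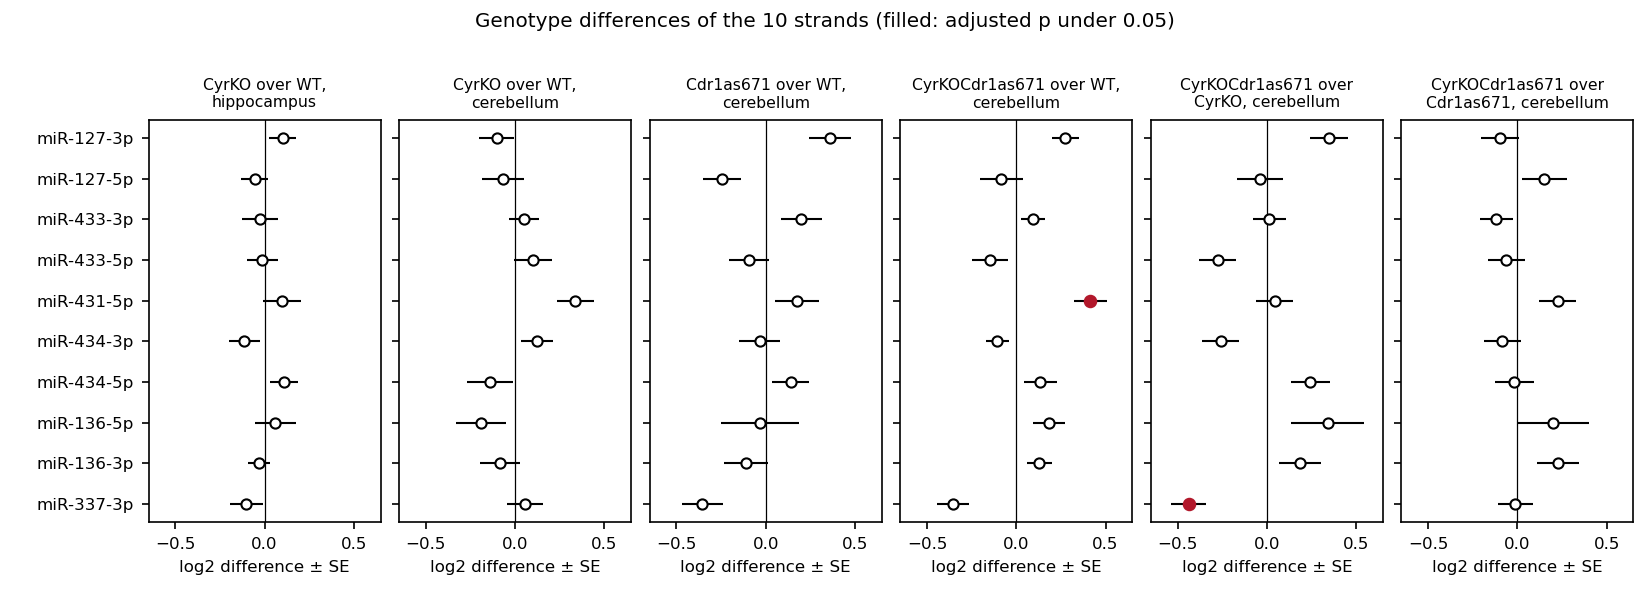
Log2 difference ± SE of each strand in 6 comparisons of genotypes, from the edgeR fits. Filled points have an adjusted p under 0.05: miR-431-5p in CyrKOCdr1as671 against WT and miR-337-3p in CyrKOCdr1as671 against CyrKO.

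Between mutants, miR-337-3p fell in the double mutant against CyrKO, the only one of the 10 called there (edgeR, 5 at unadjusted p under 0.05), beside 2.33% of 688 tested miRNAs. It was read at 77.4, 69.6 and 67.5 CPM in CyrKOCdr1as671 and at 100.1, 103 and 97.1 CPM in CyrKO, a log2 difference of -0.44 (SE 0.10, edgeR adjusted p = 0.0237). The call was kept in all 9 other settings and lost in 10 of 12 fits that left out a library (all but those without CyrKOCdr1as671 library 1 or Cdr1as671 library 3), where the difference ran from -0.44 to -0.36. Red blood cell miRNAs summed to 5405 to 16004 CPM in CyrKOCdr1as671 and 16566 to 27991 CPM in CyrKO. With their mean log2 level as a covariate the log2 difference of miR-337-3p was -0.39 (edgeR adjusted p = 0.0425). Choroid plexus miRNAs did not overlap either, at 6971 to 8155 CPM in CyrKOCdr1as671 and 8229 to 10107 CPM in CyrKO, and their part was not tested. miR-127-3p followed at 0.35 (SE 0.11, edgeR adjusted p = 0.0987) and passed with both Cdr1as671 libraries 1 and 2 left out of the fit (edgeR adjusted p = 0.0481).

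In the same comparison miR-433-5p stood at -0.27 (SE 0.10, edgeR adjusted p = 0.166), miR-434-3p at -0.26 (SE 0.10, adjusted p = 0.173) and miR-434-5p at 0.24 (SE 0.11, adjusted p = 0.217). The 10 strands had 1.51 ± 0.0902 times the reads of the distal strands in CyrKOCdr1as671 and 1.27 ± 0.0600 times in CyrKO, without overlap (exact permutation p = 0.1, the smallest possible, 0.16 adjusted). The log2 difference was 0.25, or 0.084 with means of log2 levels in place of sums. Strand ratios did not overlap either for miR-127 (24.3 ± 5.45 in CyrKOCdr1as671 and 18.2 ± 0.962 in CyrKO), miR-433 (17.2 ± 1.82 and 13.998 ± 0.575) and miR-434 (7.48 ± 0.836 and 10.9 ± 3.07), each with an exact permutation p of 0.1 and 0.213 adjusted.

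Against Cdr1as671, the double mutant differed in none of the 10 by the test (edgeR, 1 at unadjusted p under 0.05, and 0 by DESeq2), beside 0.727% of 688 tested miRNAs. The lowest p was that of miR-431-5p, at 102 ± 6.63 CPM in CyrKOCdr1as671 and 94.6 ± 12.6 CPM in Cdr1as671, with a log2 difference of 0.23 (SE 0.10, edgeR adjusted p = 0.547). miR-136-3p at 0.23 (SE 0.12) and miR-433-3p at -0.12 (SE 0.09) followed, and both took the opposite sign without Cdr1as671 libraries 1 and 2.

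Whether the mutations combined other than additively on the log2 scale was tested by their interaction in the 12 cerebellum libraries. None of the 10 strands was called (edgeR, 0 at unadjusted p under 0.05 and 0 by DESeq2), beside 0.145% of 688. The lowest p-values belonged to miR-136-3p at 0.29 (SE 0.17), miR-434-3p at -0.23 (SE 0.15) and miR-433-3p at -0.18 (SE 0.13), each with an edgeR adjusted p of 0.863. Without Cdr1as671 libraries 1 and 2 they were 0.024, -0.020 and -0.00062.

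Sorted by allele, miR-337-3p separated the cerebellum libraries, a grouping chosen after its values were seen. The 6 libraries with the Cdr1as671 allele had 67.5 to 80.6 CPM (median 74.9), and the 6 without it had 91.9 to 103 CPM (median 98.9). In this split of 6 against 6, miR-337-3p was the only one of the 10 without overlap. Of 688 miRNAs, 5.52% had all libraries with the allele below the rest and 1.60% had them above. Without Cdr1as671 libraries 1 and 2 the remaining 4 with the allele had 67.5 to 80.2 CPM of miR-337-3p. There miR-433-5p (29.9 to 36.5 against 38.6 to 44.3 CPM) and miR-434-3p (2731 to 3041 against 3265 to 3988 CPM) separated as well. Both overlapped in the split of 6 against 6. A smaller split separates more easily, and its share of all miRNAs was not computed, so nothing about these strands follows from it. Split by Cyrano, all 10 strands overlapped, and 0.727% of miRNAs were higher and 0.436% lower without overlap in the libraries without Cyrano. For miR-431-5p those libraries ran from 97.2 to 109.9 CPM, and those with Cyrano from 73.6 to 105 CPM.

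In order of mean level, both hippocampus groups stood first for each of the 10 strands. Neighbouring groups in that order had overlapping libraries in 4 of the 5 steps for most strands, the step between hippocampus and cerebellum being the one that separated. Further separations were found for miR-434-3p, where CyrKOCdr1as671 at 2894 ± 133 CPM stood below WT at 3295 ± 40.2 CPM, for miR-434-5p between CyrKOCdr1as671 and Cdr1as671, and for miR-337-3p between Cdr1as671 and WT. miR-136-5p had no step without overlap. Such orders and steps were not counted over all miRNAs. For 44.8% of the 746 tested miRNAs all hippocampus libraries lay above all cerebellum libraries.

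Profiles of the strands were alike over the 18 libraries, which include both tissues, and not within cerebellum. Pearson's r of log2(CPM + 1) between pairs of the 10 had a median of 0.872 over the 45 pairs (lowest 0.521, highest 0.982). Within the 12 cerebellum libraries the median was -0.07, from -0.900 to 0.933. These are descriptions over libraries that share tissue and genotype.

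Of 234 other miRNAs with a mean of at least 100 CPM, those whose profile over the 18 libraries was most like the mean of the 10 were miR-139-5p (r = 0.996), miR-1983 (0.996), miR-541-5p (0.995), miR-380-3p (0.994) and miR-551b-3p (0.993). miR-541-5p and miR-380-3p are distal strands of the same region, and miR-139-5p, miR-1983 and miR-551b-3p lie on other chromosomes. Over the 12 cerebellum libraries the nearest were the distal strands miR-300-3p (r = 0.909) and miR-154-5p (0.832), then miR-128-3p (0.764), miR-181c-5p (0.762) and miR-497-5p (0.755). In those libraries the r of each strand with the mean of the other 9 ran from -0.41 (miR-136-5p) to 0.40 (miR-434-5p). Likeness to the mean is there not likeness to each strand.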

How the data were processed

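Small RNAs of 18 to 32 nt were sequenced from 5 ug of total RNA per library (RNA integrity numbers 8.5 to 9.5, per the labels). The authors deposited 4 tables of raw counts per mature miRNA, with log2 fold changes and adjusted p-values of their own, per the file headers; the submitters' processing notes name cutadapt and DESeq2 1.10. How reads were assigned, and to which annotation and build, is not stated by the labels or headers. WT cerebellum columns were identical across the cerebellum tables and were used once. CPM was computed from the counts and the library's total. Replicates are biological per the series' design text.

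Counts were tested with edgeR 4.0.16 (quasi-likelihood test, TMM, edgeR's low-count filter set to 10 reads and 15 in total, R 4.3.3), with Benjamini-Hochberg adjustment over all tested miRNAs and a threshold of 0.05. Comparisons with WT of a genotype used the 6 libraries of both groups; those between mutants and the interaction used the 12 cerebellum libraries, and tissues the 12 WT and CyrKO libraries. Ratios within libraries used log2 of counts plus 0.5 and exact two-sided permutation tests. The fits were also run on simulated counts with known changes. The outcome of that run is not given here, so it says nothing on differences as small as those above. DESeq2 1.42.0, other scalings and filters, a red blood cell covariate, a replicate block and leaving out each library were the alternatives. Numbers 1 to 3 were checked for pairing by the correlation of deviations from group means: every pair was over 0.1 in CyrKO against WT cerebellum (0.127 to 0.534) and CyrKOCdr1as671 against WT cerebellum (0.463 to 0.659), and not in the other 6 comparisons. Named neighbours are the 3 lowest p-values among the called strands of each list; likeness took miRNAs with a mean of at least 100 CPM. The members and lists were chosen with earlier results of these data known.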

Additional observations from a re-analysis of the deposited data

How the results depend on the processing

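Under other settings 513 values stayed the same, 36 lost and 12 gained a call, 15 counts moved and 11 changed sign. Leaving out 1 library gave 781, 31, 6, 19 and 21. For log2 differences of strands, the same means direction and side of the threshold, but for shares and ratios it means direction alone. Modest changes in a count of members called also passed as the same, such as 9 in the WT tissue comparison and 6 with RLE. Members called in Cdr1as671 against WT were 0, and 1 with no low-count filter or 12 libraries in the fit (0 to 4 with 1 library left out, 4 without Cdr1as671 library 3). In CyrKOCdr1as671 against WT they were 1, with 3 under no filter, 2 by DESeq2 or the authors' deposited adjusted p-values, and 0 with a mean of at least 10 CPM, RLE, the red blood cell covariate or 12 libraries (0 to 3 with 1 left out, 3 without WT library 2 and 0 without any other). Against CyrKO they were 1, with 2 under no filter, DESeq2 or without both Cdr1as671 libraries 1 and 2, a setting chosen after seeing the data (0 to 2 with 1 left out, 2 without Cdr1as671 library 3), and against Cdr1as671 0 (0 to 1, 1 without Cdr1as671 library 3). In the tissue comparisons the covariate left 3 in WT and 2 in CyrKO, and the 10 CPM filter 5 in CyrKO. The replicate block changed no count of members called (miR-431-5p in CyrKOCdr1as671 against WT had a log2 difference of 0.41 with it); in same-number pairs the strand ratios gave exact sign-flip p-values of 0.25 to 1, where 3 pairs allow no less than 0.25, and shares and the ratio to distal strands had no paired test. Over all miRNAs, calls in Cdr1as671 against WT were 5 higher and 10 lower, 9 and 21 by DESeq2, and 7 and 35 with the block. Deviations of same-number libraries were not all positively correlated in that comparison. In CyrKOCdr1as671 against WT DESeq2 gave 19 and 29, and against CyrKO 17 and 17 where edgeR gave 7 and 9. Log2 differences that changed sign, none past the threshold before, were those of miR-136-3p (-0.050) and miR-433-3p (0.060) in CyrKOCdr1as671 against Cdr1as671 without libraries 1 and 2, and between tissues miR-136-5p in WT (0.40 with library totals) and CyrKO (-0.026 with the 10 CPM filter, -0.12 with the covariate), and miR-431-5p in CyrKO (-0.11 with that filter, -0.032 with RLE, -0.031 with DESeq2, -0.020 without the miR-7 guides). Read shares took a log2 difference of -0.026 in CyrKO against WT hippocampus and -0.022 in CyrKOCdr1as671 against WT with totals that omit the 10 most abundant other miRNAs. With 1 library left out, miR-136-5p ran from -0.23 to 0.042 between tissues in WT and -0.068 to 0.29 in CyrKO, miR-431-5p from -0.097 to 0.13 in CyrKO, and the 10 strands over distal reads from -0.0053 to 0.080 in CyrKO against WT hippocampus. Log2 strand ratios so ran from -0.12 to 0.084 (miR-127, CyrKO against WT cerebellum), -0.091 to 0.042 (miR-433) and -0.053 to 0.20 (miR-136) in CyrKO against WT hippocampus, -0.075 to 0.14 (miR-136, Cdr1as671 against WT), and, in CyrKOCdr1as671 against Cdr1as671, -0.13 to 0.052 (miR-433), -0.17 to 0.0097 (miR-434) and -0.093 to 0.13 (miR-136). The cause of these changes was not tested. With 3 libraries a group no permutation p can go below 0.1.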
